A study of Mus musculus with 30 samples.

Results

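The peaks described here are the open chromatin regions whose accessibility tracked the RNA of a nearby gene in mouse retinal ganglion cells (RGCs), the output neurons of the eye, after a crush of the optic nerve that carries their axons. The authors' deposited table pairs peaks with genes whose promoter peak lies within about 250 kb and gives a correlation, EGcorr, for each pair. A pair with an EGcorr of 0.80 or more is called a link here, and its peak and gene are called linked. The table held 169469 pairs of 84541 peaks and 12438 genes, of which 6081 pairs were links. These joined 5528 linked peaks, of 151630 peaks in the series, to 3301 linked genes, of 13752 in the RNA table.

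Cells were dissociated with papain, and RGCs were isolated by FACS. Open chromatin was measured by ATAC-seq, in which a transposase cuts accessible DNA, on day 1 after crush (n = 3) and day 3 after crush (n = 6), and in RGCs with no crush (n = 6). RNA-seq libraries analysed here came from day 1 (n = 3), day 2 (n = 2), day 3 (n = 3), day 4 (n = 2) and no crush (n = 3); replicate 3 of day 2 and replicate 1 of day 4 were not used. The strain label is C57BL/6 for all of these libraries except RNA no crush replicates 2 and 3, labelled C57BL/7 and C57BL/8. No transgene, further treatment, age or sex is given in the labels used here. Nothing in the labels says that replicates came from separate animals, so p-values measure the spread between libraries.

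Promoters and distal elements are stretches of DNA that transcription factors bind, and binding commonly goes with loss of the local nucleosome and more transposase cuts. A distal element can act on a promoter far along the chromosome, which is why accessibility and RNA are often correlated across samples to nominate target genes. In injured RGCs, stress factors of the ATF, CEBP and AP-1 families are known to be induced, while genes of RGC identity and electrical excitability are known to be lost.

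Recomputing the correlations from the deposited tables showed that EGcorr is Pearson's r over 9 library pairs, namely no crush, day 1 and day 3, replicates 1 to 3 of each, with an ATAC library set against the RNA library of the same number. The recomputed values differed from the deposited ones by at most 1.74e-11. The labels do not tie an ATAC library to an RNA library. The table lists positive correlations only, so a shared direction is largely fixed by the choice of links. On day 3 over all libraries, peak and gene were both higher in 2488 links and both lower in 3287, while in 175 the peak alone and in 128 the gene alone was higher. The ATAC and RNA changes of those 9 libraries per assay therefore chose the linked peaks. Counts of linked peaks and genes called on days 1 and 3 are given as description beside the share of all peaks or genes called, and nothing is read from them. ATAC replicates 4 to 6, and RNA of days 2 and 4, did not enter the correlations.

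At the threshold, the lowest link was that of Chchd10 at 0.800028 and the highest pair outside was that of Rd3l at 0.799949. There were 4216 pairs between 0.75 and 0.80, 3107 between 0.80 and 0.85, 1948 between 0.85 and 0.90 and 1026 above. The highest EGcorr, 0.988, belonged to Wasf3. The authors' deposited p-values of the links ran from 0.00987 to 0.0296, and they are not adjusted for the number of pairs. They follow the upper tail of a normal distribution of EGcorr with an SD of 0.424 and a mean of 8.35e-05. They are therefore not tests of each r over its library pairs.

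The RefSeq promoter windows of 3 genes of the injury and stress lists lay in linked peaks and held a site of the bZIP factor ATF3 from the authors' deposited footprint table. They were chosen for lying at a promoter and holding such a site, which 16.0% of linked peaks did, so they are not typical linked peaks. They are printed 5′ to 3′ on the gene's strand in build GRCm38.p6 from 250 bases before to 50 after the RefSeq start, with the ATF3 sites in capitals. Cebpb encodes a bZIP factor of the acute response, Klf6 a zinc finger factor tied to axon growth, and Ppp1r15a the phosphatase subunit GADD34, which reverses eIF2α phosphorylation.
Cebpb, chr2:167688665-167688964, plus strand: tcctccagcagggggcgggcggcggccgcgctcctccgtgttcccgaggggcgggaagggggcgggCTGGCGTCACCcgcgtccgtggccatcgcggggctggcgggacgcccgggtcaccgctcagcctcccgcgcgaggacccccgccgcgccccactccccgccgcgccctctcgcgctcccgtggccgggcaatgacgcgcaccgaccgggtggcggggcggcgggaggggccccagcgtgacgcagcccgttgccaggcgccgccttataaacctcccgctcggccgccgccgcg
Klf6, chr13:5861239-5861538, plus strand: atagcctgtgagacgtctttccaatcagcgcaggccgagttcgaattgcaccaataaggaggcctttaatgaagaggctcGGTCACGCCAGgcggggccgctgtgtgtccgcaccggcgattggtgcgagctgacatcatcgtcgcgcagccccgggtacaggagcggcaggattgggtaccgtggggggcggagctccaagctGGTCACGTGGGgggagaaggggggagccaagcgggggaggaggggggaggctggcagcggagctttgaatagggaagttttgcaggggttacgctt
Ppp1r15a, chr7:45526219-45526518, minus strand: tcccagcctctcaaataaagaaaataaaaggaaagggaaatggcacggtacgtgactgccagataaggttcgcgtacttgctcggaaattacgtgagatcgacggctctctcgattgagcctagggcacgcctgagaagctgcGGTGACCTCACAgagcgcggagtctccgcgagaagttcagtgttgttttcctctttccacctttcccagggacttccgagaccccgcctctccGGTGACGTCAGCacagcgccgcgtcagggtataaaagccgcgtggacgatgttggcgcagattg

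The Cebpb and Klf6 windows lie in the promoter peaks of those genes, which were linked to their own gene at EGcorr of 0.871 and 0.819. The Ppp1r15a window lies in a peak with 3 links, to the ferritin light chain gene Ftl1 (0.907), Ruvbl2 (0.846) and Rpl18 (0.832), while the 1 link of Ppp1r15a itself was to another peak. The authors' deposited footprint table gives scores in columns named nonTarget with day 0, 1 or 3, and which libraries these pool is not given in the labels used here. The Cebpb site scored 0.570 on day 0, 0.854 on day 1 and 1.20 on day 3. The Klf6 site nearer the start scored 2.66, 3.03 and 3.66 on the same days, and the Ppp1r15a site nearer the start, at chr7:45526271-45526282, scored 1.46, 1.66 and 2.00. All 5 sites were called bound on each day in that table. The cAMP response motif TGACGTCA, searched on both strands, was found in the Ppp1r15a window and in neither of the others. It was in 2.47% of the 1417 promoter windows inside linked peaks and in 1.79% of all 32851 windows. The AP-1 motif TGANTCA was in 3.67% and 7.81% of the same sets, and TGATGNAA, the ATF4 and CEBP composite motif, in 1.69% and 3.97%. The full set was taken whether or not a window lay in any peak, so these shares do not compare linked with other peaks.

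Most linked peaks were annotated outside promoters, though promoter was the largest single class. Of the 5528, 2054 (37.2%) were annotated as promoter, 1530 (27.7%) as intron and 1379 (24.9%) as distal intergenic. Promoter peaks made up 31.1% of the 79013 paired peaks with no link. For 127 links the peak was the promoter peak of the linked gene itself. The nearest gene in the deposited annotation was the linked gene in 5.44% of links, and the median distance from peak to promoter peak was 121 kb for links and 120 kb for all pairs. Linked peaks were longer, with a median of 1148.5 bases against 817 in paired peaks with no link, and deeper, with a median of 141.5 against 78.1 reads per library. Their median GC content was 49.5% against 48.9%. The part of depth and length in becoming linked was not tested.

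A strong correlation was no more frequent near a gene than far from it, apart from the gene's own promoter peak. Recomputed over every peak within 250 kb of the 12438 promoter peaks, 12160 of 696350 pairs (1.75%) had r of 0.80 or more and 12310 (1.77%) had r of -0.80 or less. The share at 0.80 or more was 1.62% within 10 kb, 1.73% from 10 to 50 kb, 1.70% from 50 to 100 kb and 1.81% from 200 to 250 kb. Over all pairs on other chromosomes it was 1.92%, with 2.05% at -0.80 or less. At the gene's own promoter peak it was 4.06% at 0.80 or more and 2.34% at -0.80 or less. Only 48.5% of positive pairs within this span stand in the deposited table, and the sources used here do not say how they were chosen. The pairs share libraries, so these shares are descriptions over pairs and carry no p-value.

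**Figure D1:**
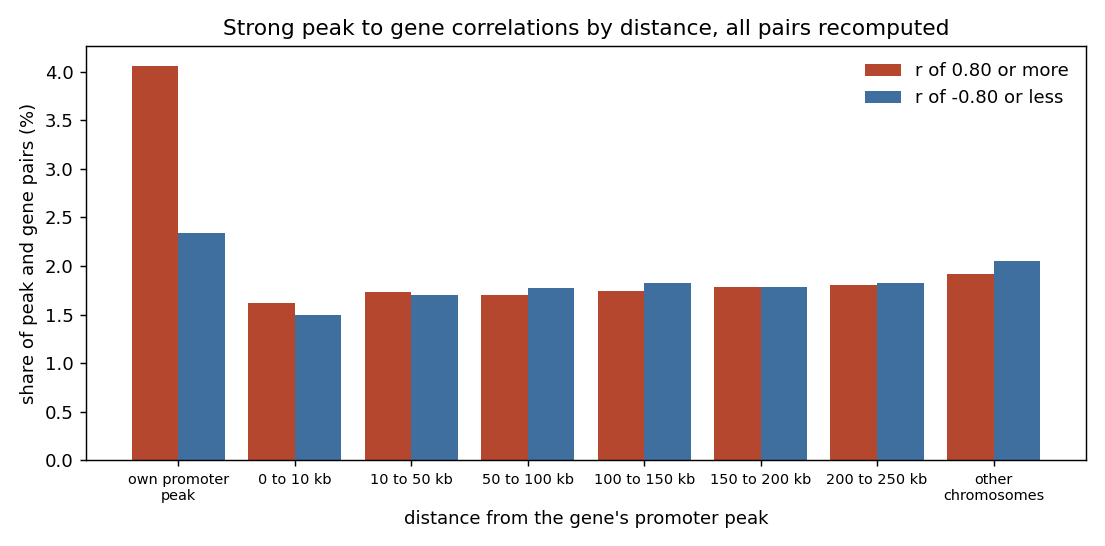
Share of recomputed peak and gene pairs (%, vertical axis) with r of 0.80 or more and r of -0.80 or less, by distance of the peak from the gene's promoter peak. The share at 0.80 or more is 4.06% at the own promoter peak, 1.62% to 1.81% in the shown bins out to 250 kb and 1.92% for pairs on other chromosomes.

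The links rested mainly on differences between days. The median r of links was 0.849 over the 9 library pairs, 0.98 over the 3 day means and 0.49 within days after the day means were removed, where 84.5% of links were positive. Differences between days made up a median of 77.3% of the variance of a linked peak and 86.2% of that of a linked gene, against 47.5% and 56.9% over all pairs of the table. Single libraries carried many links. Leaving out the day 3 replicate 3 pair kept 4388 of 6081 links (72.2%) at 0.80 or more, leaving out day 3 replicate 2 kept 4597 (75.6%), and leaving out any other pair kept 5232 to 5769. Under every one of these omissions 2804 links (46.1%) stayed at 0.80 or more, and 33 fell under 0.50 under at least 1.

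Most genes gathered few linked peaks. There were 1920 genes with 1 linked peak, 726 with 2, 313 with 3 and 149 with 4, and the highest number was 15. The 12 genes with the most were Fzd5 (15 linked of 36 paired peaks), Eif4ebp1 (13 of 36), Smad3 (13 of 26), Lgals1 (11 of 33), Gpr137b-ps (11 of 44), Dpysl5 (10 of 38), Zfp398 (10 of 30), Rpl4 (10 of 28), Bola3 (10 of 37), Arpc5 (10 of 37), Prmt8 (9 of 34) and Pdxp (9 of 34). Every linked peak of Fzd5, Eif4ebp1, Smad3, Lgals1, Gpr137b-ps, Rpl4 and Arpc5 was higher on day 3 than with no crush, and every linked peak of Dpysl5, Zfp398, Bola3, Prmt8 and Pdxp was lower. Neighbouring peaks are not independent of each other, and Smad3 and Rpl4, both on chromosome 9, shared 6 linked peaks.

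**Figure D2:**
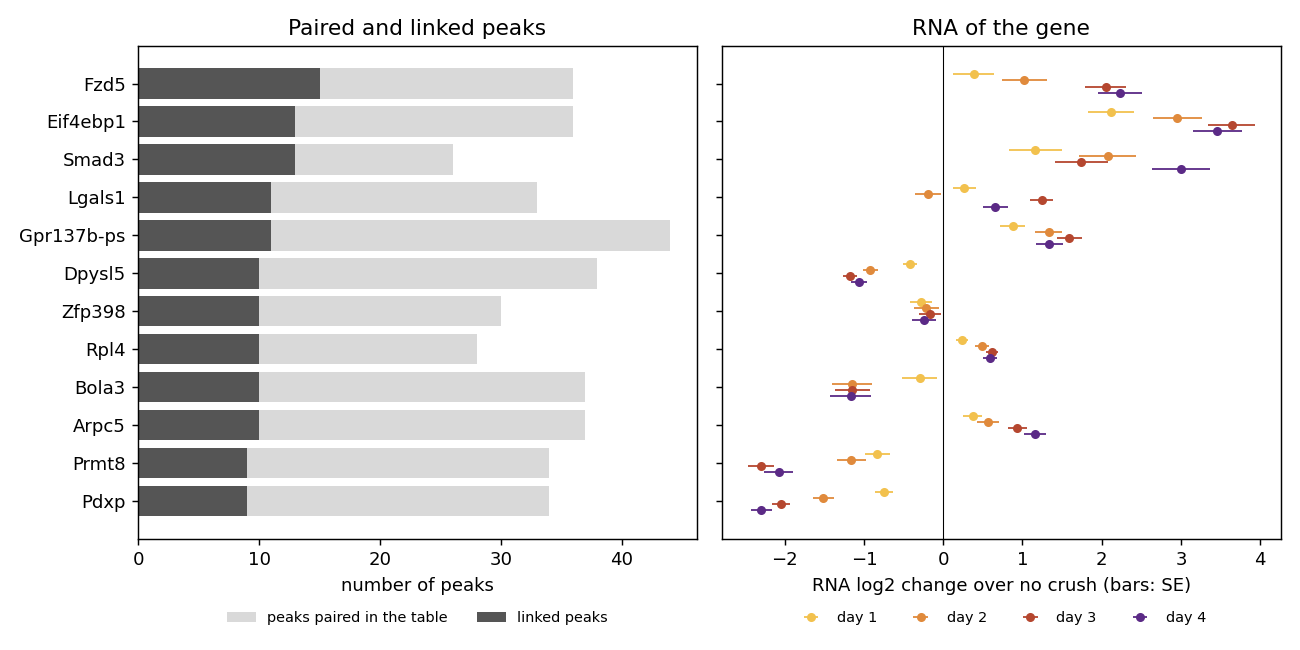
Left, number of peaks paired with each of the 12 genes in the table (light bars) and number linked (dark bars). Right, log2 change of the gene's RNA over no crush on days 1 to 4 (points, with SE). Fzd5 has 15 linked peaks and RNA changes of 0.39 to 2.23, and Zfp398 has 10 with RNA changes of -0.29 to -0.17.

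Fzd5 encodes a Frizzled receptor for Wnt ligands. Its RNA was 7.85, 4.10 and 4.74 CPM (counts scaled to a library of 1000000) with no crush, 7.84, 7.38 and 6.48 CPM on day 1, 13.6 and 8.89 CPM on day 2, 19.8, 19.7 and 29.3 CPM on day 3 and 24.6 and 27.3 CPM on day 4. Day 1 overlapped no crush, and days 2 to 4 did not. Its 15 linked peaks lie 16.3 to 235 kb from its promoter peak on chromosome 1. The linked peak with the highest EGcorr, 0.973, was chr1:64942026-64942866, an intronic peak of 841 bases. It held 2.97 to 4.88 CPM (median 3.72) on day 3, 2.04, 1.92 and 2.09 CPM on day 1 and 1.14 to 2.05 CPM (median 1.26) with no crush. All 6 day 3 libraries were above all 6 no crush libraries. Replicates 4 to 6 alone had a 2.50-fold higher level on day 3 than with no crush (log2 1.32 ± 0.24 SE, n = 3 each, edgeR adjusted p = 0.00023). Of the 15 linked peaks 13 were higher there, 5 with an adjusted p under 0.05. Over all peaks tested in replicates 4 to 6, 4.32% were called higher and 0.411% lower. Of all peaks higher in replicates 1 to 3, 67.7% were also higher there, and of those lower 66.7% were also lower. These shares stand beside every such count for single genes below, and neighbouring peaks are not separate evidence.

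Eif4ebp1 encodes 4E-BP1, which blocks cap-dependent translation and is a target of ATF4. Its RNA was 1.68, 0.91 and 1.09 CPM with no crush, 6.20, 3.93 and 5.69 on day 1, 8.88 and 9.96 on day 2, 17.2, 13.9 and 14.3 on day 3, and 11.1 and 15.6 on day 4. All 10 crush libraries were above those with no crush. Its 13 linked peaks lie 48.5 to 250.1 kb away on chromosome 8. The highest, chr8:27102093-27103148 (EGcorr 0.949, intron), held 6.08, 7.25 and 8.18 CPM on day 3 and 1.70, 1.11 and 2.21 CPM with no crush in replicates 1 to 3. Replicates 4 to 6 held 5.58, 6.34 and 7.32 CPM on day 3 and 5.38, 3.24 and 7.55 CPM with no crush, and those groups overlapped (log2 0.27 ± 0.21 SE, n = 3 each, edgeR adjusted p = 0.60). Of the 13 linked peaks 12 were higher on day 3 in replicates 4 to 6, with a median log2 change of 0.25 there and 0.88 over all libraries.

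Smad3 encodes a signal transducer of TGF-β receptors and Rpl4 a protein of the large ribosomal subunit. Smad3 RNA was 2.71, 1.21 and 1.91 CPM with no crush and 3.77, 6.94 and 8.64 on day 3, and it reached 14.4 and 16.5 on day 4. Rpl4 RNA changed less, from a higher level, with a log2 change on day 3 of 0.62 ± 0.08 SE. The peak of highest EGcorr for Rpl4 (0.977), chr9:63941802-63942330, was also linked to Smad3 (0.831). It held 3.11, 3.24, 4.98, 2.44, 2.57 and 2.95 CPM on day 3, against 0.78, 0.62, 0.87, 0.92, 1.01 and 1.35 CPM with no crush, with no overlap. In replicates 4 to 6 it was 2.44-fold higher on day 3 (log2 1.29 ± 0.25 SE, n = 3 each, edgeR adjusted p = 0.000752). All 13 linked peaks of Smad3 and all 10 of Rpl4 were higher in replicates 4 to 6, with medians of 0.22 and 0.15 on the log2 scale, and 2 and 1 of them passed the test.

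Lgals1 encodes galectin-1 and Arpc5 a subunit of the Arp2/3 complex, which branches actin. Lgals1 RNA was 20.0, 22.1 and 19.9 CPM with no crush, 16.8 and 19.3 CPM on day 2, 40.5, 47.9 and 58.3 CPM on day 3 and 33.1 and 32.1 CPM on day 4. Its linked peaks moved little in replicates 4 to 6, where 7 of 11 were higher on day 3, the median log2 change was 0.08 and none passed the test. Of the 10 linked peaks of Arpc5, 7 were higher in replicates 4 to 6 and 4 passed the test. The peak of its highest EGcorr was among the others, with a log2 change of -0.14 ± 0.28 SE there (n = 3 each, edgeR adjusted p = 0.867). Gpr137b-ps is annotated as a pseudogene of Gpr137b, so its reads may be shared with that gene, and its 11 linked peaks had a median log2 change of 1.20 on day 3 over all libraries and 0.28 in replicates 4 to 6.

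Prmt8 encodes an arginine methyltransferase of neurons, Pdxp a phosphatase that acts on pyridoxal phosphate and cofilin, and Dpysl5 a collapsin response mediator of axon guidance. Dpysl5 RNA was 351, 307 and 313 CPM with no crush and 135, 145 and 150 CPM on day 3, and 9 of its 10 linked peaks were lower in replicates 4 to 6. Prmt8 RNA was 76.8, 78.4 and 53.5 CPM with no crush, 38.4, 45.7 and 32.9 on day 1, 29.5 and 32.7 on day 2, 13.0, 14.8 and 14.4 on day 3, and 16.7 and 16.2 on day 4. Every crush library was below every library with no crush. Its highest linked peak, chr6:127947992-127949714, held 3.51 to 5.14 CPM (median 4.58) on day 3 and 6.64 to 8.80 CPM (median 7.16) with no crush, with no overlap. In replicates 4 to 6 its log2 change was -0.55 ± 0.17 SE, which missed the threshold (n = 3 each, edgeR adjusted p = 0.0615), and all 9 linked peaks of Prmt8 were lower there.

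Pdxp RNA was 139, 147 and 161 CPM with no crush and 37.1, 33.8 and 37.1 on day 3. Its highest linked peak, chr15:78735348-78739441, held 8.43 to 16.4 CPM (median 12.6) on day 3 and 17.6 to 26.3 CPM (median 22.4) with no crush, again with no overlap. It fell in replicates 4 to 6 (log2 -0.63 ± 0.17 SE, n = 3 each, edgeR adjusted p = 0.0213), where all 9 linked peaks of Pdxp were lower and 3 passed the test. Pdxp and Lgals1 both lie on chromosome 15, and their RNA moved in opposite directions by day 3. They had 2 paired peaks and 0 linked peaks in common.

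Bola3, which takes part in the assembly of mitochondrial iron-sulfur clusters, had 10 linked peaks, of which 7 were annotated as promoter. Its RNA was 11.6, 10.2 and 15.3 CPM with no crush and 5.28, 5.59 and 5.89 CPM on day 3. Zfp398, a zinc finger gene, stood apart because its RNA barely moved. It was 28.0, 26.8 and 28.7 CPM with no crush, 23.3, 22.8 and 22.4 CPM on day 1 and 27.9, 24.2 and 22.0 CPM on day 3, and day 3 overlapped no crush. Its 10 linked peaks had a median log2 change of -0.36 on day 1 and -0.15 on day 3.

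**Figure D3:**
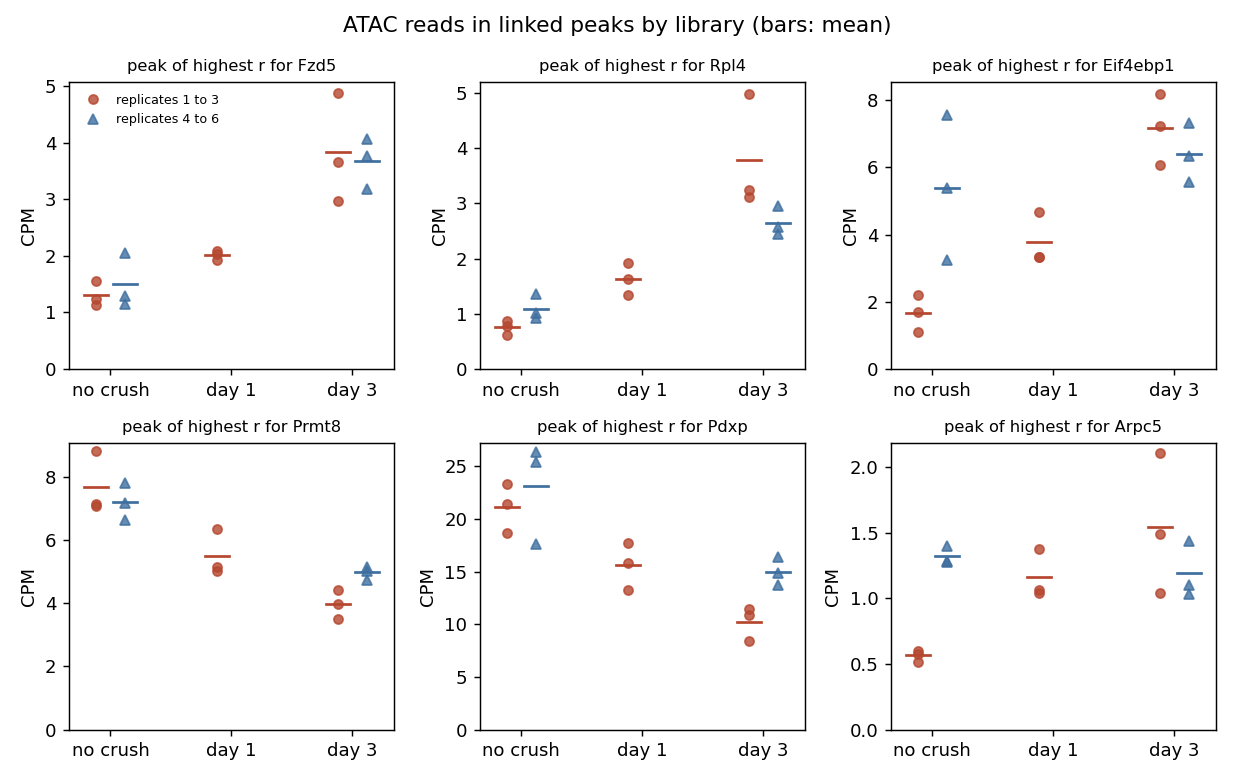
CPM in the linked peak of highest EGcorr for 6 genes (vertical axes) with no crush and on days 1 and 3, for replicates 1 to 3 (circles), which the correlations used, and replicates 4 to 6 (triangles), which they did not; bars are means. The Fzd5 and Rpl4 peaks are higher on day 3 in both sets, while with no crush in replicates 4 to 6 the Eif4ebp1 peak is at 3.24 to 7.55 CPM and the Arpc5 peak at 1.28 to 1.40 CPM, within or near their day 3 ranges.

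Over all 5528 linked peaks, the libraries used by the correlations and those not used could be compared for day 3 against no crush. The groups share no library. In replicates 1 to 3, 2329 of the 5524 linked peaks tested in both sets were higher and 3195 lower. Of those higher, 1840 (79.0%) were also higher in replicates 4 to 6, 435 of them rose past the threshold and 0 fell. Of those lower, 2643 (82.7%) were also lower, 75 fell past the threshold and 7 rose. The sign was shared by 81.2% of linked peaks and by 67.2% of all peaks, a difference that was not tested. Changes were smaller in replicates 4 to 6, with a median log2 change of 0.28 against 1.00 in replicates 1 to 3 for peaks higher there, and -0.21 against -0.53 for those lower. Peaks were linked and split by sign in replicates 1 to 3, so smaller changes elsewhere are partly set in advance. Over all peaks the same medians were 0.16 against 0.37 and -0.12 against -0.29. In all, 442 linked peaks rose and 75 fell in replicates 4 to 6, which is 8.00% and 1.36% of those tested, beside 4.32% and 0.411% of all 151307 peaks tested (4.73% in either direction). The share of reads in peaks in replicates 4 to 6 was 0.197 to 0.456 on day 3 and 0.322 to 0.391 with no crush. With that share as a term, 466 rose and 171 fell, and without no crush replicate 6 the total was 646, without day 3 replicate 6 it was 283.

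Size of change went with both shares. Among peaks that changed by 1 or more on the log2 scale in replicates 1 to 3, 94.6% of 1585 linked and 93.4% of 17816 other peaks kept their sign in replicates 4 to 6, and 25.3% and 23.9% passed the test. From 0.5 to 1 the shares of shared sign were 84.3% and 77.7%, from 0.25 to 0.5 they were 75.9% and 64.3%, and under 0.25 they were 55.2% and 55.1%. These differences between linked and other peaks were not tested.

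**Figure D4:**
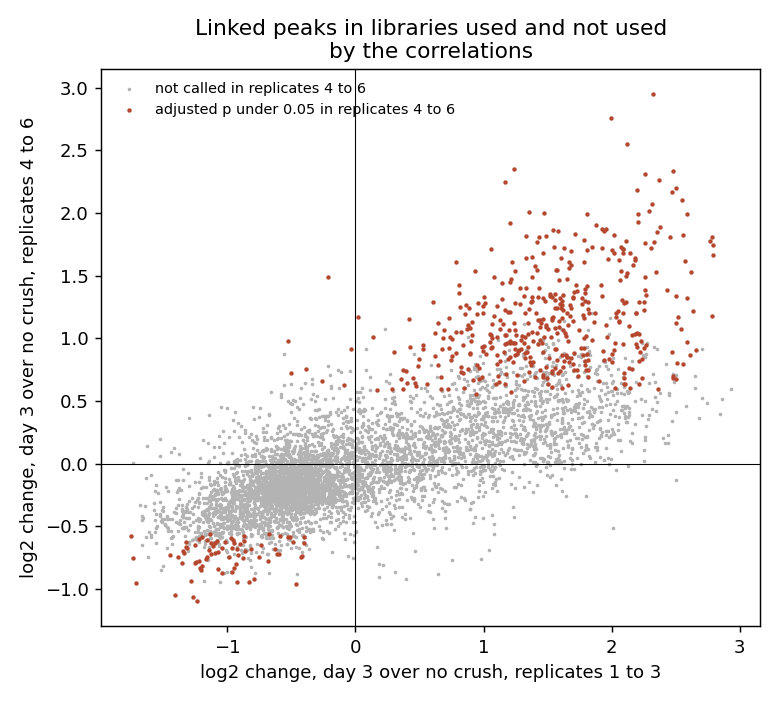
Each point is a linked peak, with its log2 change on day 3 over no crush in replicates 1 to 3 (horizontal axis) and in replicates 4 to 6 (vertical axis); red points passed an adjusted p of 0.05 in replicates 4 to 6. Of peaks higher in replicates 1 to 3, 435 rose in replicates 4 to 6 and 0 fell.

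With all 15 ATAC libraries and batch as a term, 1547 linked peaks were higher and 1314 lower on day 3 than with no crush at an adjusted p under 0.05 (edgeR), where 16.4% and 7.39% of all peaks were called higher and lower (23.8% in either direction). Scaling moved this split, to 1486 higher and 1647 lower with DESeq2 size factors and 1509 and 1726 with DESeq2. On day 1 the counts were 222 higher and 292 lower (5.44% and 2.4% of all peaks, 7.84% in either direction). That split turned to 120 higher and 75 lower with the replicate number as a block, and was 275 and 805 with DESeq2 and 193 and 578 with its size factors. Leaving out day 1 replicate 1, 2 or 3 left 58 and 9, 11 and 0, or 7 and 0. Comparing day 3 with day 1, 173 were higher and 26 lower on day 3 (0.987% and 0.193% of all peaks, 1.18% in either direction). These comparisons use the libraries that chose the links, so nothing is read from them. The share of reads in peaks was 0.157 to 0.186 on day 1, 0.173 to 0.31 on day 3 and 0.392 to 0.496 with no crush in replicates 1 to 3. With that share as a term, an alternative chosen after seeing the data, the counts were 21 higher and 1 lower on day 1, 1089 and 550 on day 3 and 443 and 439 on day 3 against day 1.

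The linked peaks with the largest changes on day 3, among those with a mean count of at least 20, were chosen on all 15 libraries and are given without a test. The largest rise was at chr16:42523736-42524071, an intergenic peak of 336 bases linked to Gap43 (EGcorr 0.868), which encodes a protein of growing axon tips. It held 1.11, 1.98, 2.20, 1.60, 1.94 and 2.46 CPM on day 3, 0.90, 0.61 and 0.73 CPM on day 1 and 0.24, 0.17, 0.67, 0.22, 0.22 and 0.35 CPM with no crush. It was the only link of Gap43 among 5 paired peaks, and every day 3 library was above every other library. The next rises were at chr10:85311795-85312064 (linked to Btbd11), chr9:95628495-95628741 (Chst2, a sulfotransferase of the cell surface), chr2:131761613-131761945 (Prnp, the prion protein gene) and chr10:89526989-89527599 (Uhrf1bp1l and Ano4), with log2 changes of 2.37 to 2.46.

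The largest fall, of -1.25 on the log2 scale, was at chr13:116380523-116380915, linked to Isl1, a homeodomain factor of RGC identity. It held 0.69 to 1.83 CPM (median 0.89) on day 3 and 1.79 to 3.46 CPM (median 2.21) with no crush, and day 3 replicate 5 overlapped the lowest library with no crush. The other 4 of the 5 largest falls were on the X chromosome, 2 of them linked to the spermine synthase gene Sms and 1 each to Cdk16 and Bcor. Of the 62 linked peaks on the X chromosome 24 were lower and 4 higher on day 3, where 14.5% of all X peaks and 7.28% of peaks on other chromosomes were lower, and these libraries include those that chose the links. The median log2 change was -0.15 over all 2260 X peaks against 0.03 over the peaks of other chromosomes. The share of ATAC counts in X peaks was 1.09% to 1.49% on day 3 and 1.40% to 1.63% with no crush. Xist, the RNA that coats the inactive X in female cells, was 206, 0.39 and 0.74 CPM with no crush, 1826, 1577 and 1159 on day 1, 0.56 and 1.30 on day 2, 961, 6.11 and 895 on day 3, and 4689 and 3583 on day 4. Its part in the X peaks was not tested. Without the X chromosome 1543 linked peaks were higher and 1290 lower.

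A peak could have several links. There were 480 peaks linked to 2 or more genes, and in 477 of them the RNA of all linked genes moved the same way on day 3. Genes linked to the same peak over the same libraries are correlated with each other, so this was largely fixed by the choice of links. The highest number of linked genes per peak was 5, reached by a pair of peaks on chromosome 19 that are named after their values were seen. The peak chr19:8702208-8704414 was linked to Snhg1, Wdr74, Stx5a, Zbtb3 and Ubxn1. It held 5.45 to 10.1 CPM (median 6.85) on day 3 and 2.28 to 3.49 CPM (median 2.81) with no crush, with no overlap, and it rose in replicates 4 to 6 (log2 1.12 ± 0.20 SE, n = 3 each, edgeR adjusted p = 0.00016). The peak chr19:7103496-7104841, linked to Rcor2, Gpr137, Fkbp2, Vegfb and Stip1, had a log2 change of -0.38 ± 0.20 SE there (n = 3 each, edgeR adjusted p = 0.393).

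RNA of day 4 and day 2 gives log2 differences with no library in common with the correlations. The test of this contrast, however, took its spread from all 13 RNA libraries in 1 fit, 9 of which chose the links. In those 9, differences between days made up a median of 86.2% of the variance of a linked gene, against 56.9% over all pairs. The shares called are therefore not independent of the choice of links. Of 3299 linked genes tested, 284 were higher and 471 lower on day 4 than on day 2 (8.61% and 14.3%), where 5.34% and 7.67% of all 13737 genes were called higher and lower (13.0% in either direction). Among the 1441 linked genes that were higher on day 3, 256 (17.8%) were higher on day 4 than on day 2 and 27 lower, with a median log2 difference of 0.22. Among all 7102 genes higher on day 3 it was 8.77%, with a median of 0.13. Among the 1858 linked genes that were lower on day 3, 444 (23.9%) were lower on day 4 than on day 2 and 28 higher, with a median of -0.25, against 14.4% and -0.18 among all 6635 such genes. Whether linked genes differ here from other genes of the same day 3 change was not tested, and linked genes were the more changed ones by choice. All libraries of day 4 and none of day 2 had high Xist, so day and whatever sets Xist cannot be told apart. Without X genes the counts were 281 and 464.

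Genes that moved more on day 3 more often had a link, and these day 3 libraries entered the correlations. Of genes with a rise of 2 or more on the log2 scale 149 of 314 (47.5%) had one, and of those with a fall of 2 or more 150 of 323 (46.4%). With changes under 0.25 it was 204 of 2080 (9.81%) on the higher side and 319 of 1885 (16.9%) on the lower. Against no crush, 316 linked genes were higher and 357 lower on day 1 (5.93% and 5.45% of all genes, 11.4% in either direction). On day 2 they were 707 and 903 (14.8% and 14.5% of all genes, 29.3%), on day 3 1037 and 1283 (20.4% and 20.1%, 40.5%) and on day 4 960 and 1169 (19.8% and 19.0%, 38.9%). Days 1 and 3 chose the links, and days 2 and 4 share the no crush libraries with them.

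**Figure D5:**
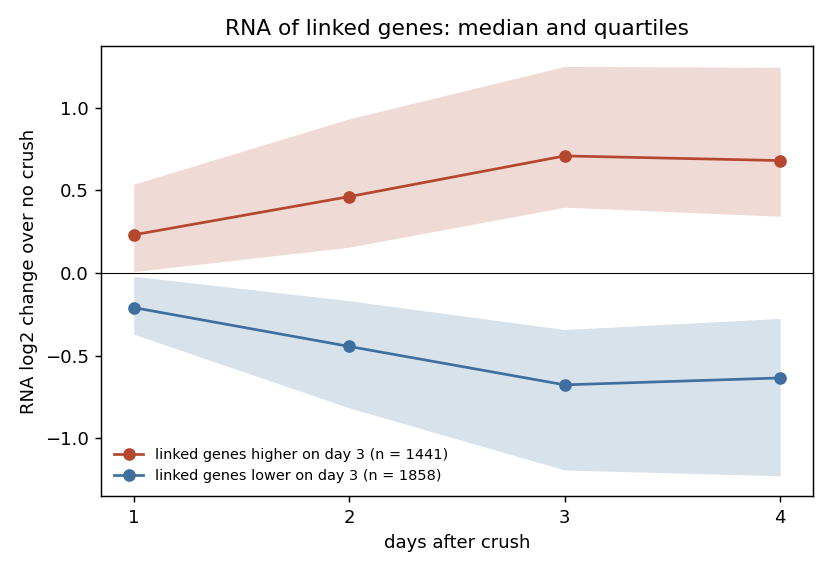
Median (lines) and quartiles (bands) of the RNA log2 change over no crush on days 1 to 4, for linked genes higher (n = 1441) and lower (n = 1858) on day 3. The medians are 0.23, 0.46, 0.71 and 0.68 for the higher genes and -0.21, -0.44, -0.68 and -0.63 for the lower ones.

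Of 20 injury and stress transcription factors, all in the table, 12 had a link, where 26.5% of all genes in the table did. On day 3, whose libraries chose the links, 11 of the 12 were called higher and 1, Sox4, lower, beside 20.4% and 20.1% of all genes, and 17 of all 20 were called higher. The median log2 change was 1.67 in the linked members, 2.21 in the 8 others and 0.03 over all genes. Cebpb had 5 links, Nfil3, a repressor of the bZIP family, had 4, and Atf3 and Mafg had 3 each. Atf3, the bZIP factor induced by axon injury, was at 4.44, 2.24 and 3.77 CPM with no crush, 54.4, 44.0 and 49.8 CPM on day 1, 223 and 216 CPM on day 2, 450, 529 and 482 CPM on day 3 and 544 and 569 CPM on day 4. It was 2.53-fold higher on day 4 than on day 2 (log2 1.34 ± 0.16 SE, n = 2 each, edgeR adjusted p = 2.44e-05). That comparison missed the threshold for Nfil3 (edgeR adjusted p = 0.0521), Cebpb (0.94) and Mafg (0.953). The 3 linked peaks of Atf3, of 32 paired, had a median log2 change of 1.57 on day 3 over all libraries, all 3 were higher in replicates 4 to 6 and 2 of them passed the test there. The single linked peak of Stat3 had a log2 change of -0.0026 on day 3 over all 15 libraries, beside 0.86 for the RNA. Stat3 RNA changed more on day 1, by 1.30 on the log2 scale, and the change of the peak on day 1 is not given here.

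Of 22 axon injury and growth genes in the table, 12 had a link. All 12 were called higher on day 3, beside 20.4% of all genes, and so were 23 of all 28 list members, linked or not. The median log2 change was 3.96 in these and 1.36 in the 10 others. Ecel1, an endopeptidase of injured neurons, had 7 links. Its RNA was 2.38, 2.50 and 1.56 CPM with no crush, 1.38, 3.27 and 4.67 CPM on day 1, 35.6 and 52.0 CPM on day 2, 314, 398 and 407 CPM on day 3 and 564 and 532 CPM on day 4. Day 1 overlapped no crush, and day 4 was 12.5-fold above day 2 (log2 3.64 ± 0.28 SE, n = 2 each, edgeR adjusted p = 6.31e-07). Its linked peaks had a median log2 change of 0.06 on day 1 and 0.74 on day 3, and 0.17 in replicates 4 to 6, where 6 of 7 were higher and none passed the test. Cdkn1a, the cell cycle inhibitor p21, and Gal, the neuropeptide galanin, had 4 links each, and all of these were higher in replicates 4 to 6. Gal RNA was 2.27, 3.24 and 5.13 CPM with no crush, 4.63 and 3.66 CPM on day 2 and 34.1 and 26.7 CPM on day 4, and it was 7.34-fold higher on day 4 than on day 2 (edgeR adjusted p = 2.72e-05). Dusp16, a phosphatase of JNK, peaked early, and on day 4 it fell to 60.7 and 50.6 CPM, against 104 and 105 CPM on day 2 (edgeR adjusted p = 0.00053).

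Of 19 genes for enzymes and transporters of the integrated stress response in the table, 15 had a link. All 15 were called higher on day 3, beside 20.4% of all genes, and so were all 21 members with RNA values, linked or not. The median log2 change was 1.85 in the linked members and 2.74 in the 4 others. Shmt2, the mitochondrial serine hydroxymethyltransferase, had 7 of its 40 paired peaks linked, and the aminoacyl-tRNA synthetase genes Wars, Sars and Yars had 4, 3 and 3. Shmt2 RNA was 10.7, 11.2 and 13.4 CPM with no crush and 126, 109 and 104 CPM on day 3. Its linked peaks moved far less, with a median log2 change of 0.34 over all libraries and 0.08 in replicates 4 to 6, where 5 of 7 were higher. Wars was 1.57-fold higher on day 4 than on day 2 (log2 0.65 ± 0.09 SE, n = 2 each, edgeR adjusted p = 8.01e-05), and for Shmt2, Sars and Yars that comparison missed the threshold.

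Of 24 genes of RGC identity in the table, 14 had a link. On day 3, 13 of the 14 were called lower, beside 20.1% of all genes, and so were 22 of the 29 members with RNA values, linked or not. Pou4f3, the exception among the linked members, had a log2 change of -0.42. Slc17a6, with no link, was the 1 list member called higher. The median log2 change was -1.70 in the linked members and -1.01 in the 10 others. Nefh, the heavy neurofilament subunit, had 5 links, and the RNA-binding protein gene Rbpms and Isl1 had 4 each, while Ebf1 had 3. Every linked peak of these genes was lower on day 3, and every one was also lower in replicates 4 to 6, where 1, of Isl1, passed the test. Rbpms RNA was 583, 549 and 605 CPM with no crush, 379, 431 and 368 CPM on day 1, 312 and 328 CPM on day 2, 248, 261 and 258 CPM on day 3 and 219 and 217 CPM on day 4. It was lower on day 4 than on day 2 (log2 -0.55 ± 0.09 SE, n = 2 each, edgeR adjusted p = 0.000531), and so was Isl1 (log2 -0.67 ± 0.16 SE, n = 2 each, edgeR adjusted p = 0.00891). The same comparison missed the threshold for Nefh (edgeR adjusted p = 0.193) and Ebf1 (0.146). The 8 RGC markers, all of them also in this list, summed to 9997 to 11087 CPM with no crush, 7271 to 9117 on day 1, 6673 to 7247 on day 2, 7469 to 8024 on day 3 and 6358 to 6658 on day 4, so every crush library was below every library with no crush. Single markers differed on day 3, with log2 changes of -2.06 for Pou4f2, -0.10 for Nefm and 0.38 for Slc17a6. In these sorted cells fewer RGCs and less RNA per RGC cannot be told apart.

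Of 31 excitability and synapse genes in the table, 17 had a link. All 17 were called lower on day 3, beside 20.1% of all genes, and so were 31 of all 37 members, linked or not. The 2 members called higher, Gria1 and Glra1, had no link. The median log2 change was -1.58 in the linked members and -0.52 in the 14 others, and the summed RGC markers given above moved the same way. The potassium channel gene Kcnc1 had 7 links, the histamine receptor gene Hrh3 had 6, the sodium channel gene Scn8a had 5 and the peptide gene Cck had 4. Their linked peaks were lower in replicates 4 to 6 except 1 of Scn8a, and 2, both of Kcnc1, passed the test. Kcnc1 RNA was 650, 543 and 527 CPM with no crush, 425, 463 and 430 CPM on day 1, 333 and 321 CPM on day 2, 236, 237 and 216 CPM on day 3 and 237 and 240 CPM on day 4. Hrh3 RNA fell further, to 1.26, 1.88 and 2.17 CPM on day 3, against 42.8, 30.0 and 31.1 CPM with no crush. Scn8a and Kcnc1 were lower on day 4 than on day 2 (log2 -0.70 ± 0.11 SE and -0.46 ± 0.10 SE, n = 2 each, edgeR adjusted p = 0.000363 and 0.00572). The same comparison missed the threshold for Hrh3 (edgeR adjusted p = 0.0724) and Cck (0.69).

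By the same rule, Clu, the secreted chaperone clusterin, had 8 of 14 paired peaks linked and Gjd2, the neuronal gap junction gene connexin-36, had 8 of 22. All 8 linked peaks of Clu were higher in replicates 4 to 6, and 2 passed the test. Clu RNA was 598 and 509 CPM on day 4 and 254 and 250 CPM on day 2 (log2 1.14 ± 0.12 SE, n = 2 each, edgeR adjusted p = 6.52e-06). Clusterin is also made by glia. Markers of Mueller glia and astrocytes, 1 of which had a link and of which Gfap was not analysed here, summed to 269 to 312 CPM on day 4 and 191 to 192 CPM on day 2, and vascular markers to 11.1 to 12.2 CPM and 3.08 to 3.92 CPM. Their part in the rise of Clu was not tested. For Gjd2, 6 of 8 linked peaks were lower in replicates 4 to 6, and 2 passed the test.

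The authors' deposited footprint tables list ATF3, ATF4, CEBPG and DDIT3 sites with a score per day. Every listed site scored higher on days 1 and 3 than on day 0, so a rise within them is not a result about linked peaks. An ATF3 site lay in 883 linked peaks (16.0%) and in 10.9% of paired peaks with no link. The shares were 5.90% and 3.80% for ATF4, 8.01% and 5.48% for CEBPG and 6.01% and 3.82% for DDIT3. Peak length moved with this difference. Among peaks of at least 1600 bases, ATF3 sites were in 25.5% of 1994 linked and 25.6% of 19326 unlinked peaks. From 800 bases to under 1600 they were in 12.6% of 1641 and 9.49% of 20970, and under 800 bases in 8.93% of 1893 and 4.36% of 38717.

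ATAC libraries held 20006724 to 72579102 counts in peaks and RNA libraries 19024286 to 27561352 in genes. Rod markers summed to 821 to 1070 CPM on day 1 and 249 to 1085 CPM with no crush, and microglia and macrophage markers to 63.0 to 339 CPM on day 1, 141.7 to 165 on day 2, 23.3 to 35.0 on day 3, 109 to 186 on day 4 and 38.9 to 68.4 with no crush. Of the markers, 4 of 8 RGC genes, 4 of 6 bipolar cell genes, 2 of 5 cone genes, 1 of 7 microglia genes and 0 of 7 rod genes had a link, beside 26.5% of all genes in the correlation table. No amacrine and horizontal, vascular or oligodendrocyte marker had one, but only 5 of 7, 3 of 5 and 2 of 4 of these were analysed here. The marker counts are over all listed markers, whether or not they stand in the correlation table, and nothing is read from them. The part of other cell types in the results was not tested.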

How the data were processed

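RGC libraries were analysed from deposited tables. The submitters' processing notes name STAR, Bowtie2, HTSeq, featureCounts, MACS2, ChIPseeker, edgeR and DESeq2 among other tools, with no roles or versions, and the builds GRCm38 and mm10. The authors' whole-number counts per gene and per peak entered all tests. The deposited batch-adjusted ATAC values and normalized RNA values are on a log2 scale and were used to recompute r. The deposited ATAC table of that kind holds all 15 libraries, so replicates 4 to 6 may have entered the adjustment. The deposited footprint score is given per site and day, each deposited p-value per pair, and the share of reads in peaks and GC content as a fraction per the file headers. The 36 per-library columns of the correlation tables were not used.

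Tests on counts used edgeR 4.0.16 under R 4.3.3 (quasi-likelihood F test, two-sided, TMM, filterByExpr, Benjamini-Hochberg, threshold 0.05) over all peaks or genes. ATAC fits held batch (replicates 1 to 3, and 4 to 6) and day, RNA fits day. Replicates 4 to 6 were also fitted alone, a test added after seeing the data. Standard errors are the size of the log2 change over the root of its F. Named genes were the 12 with the most links, up to 4 per list, and the 6 with the most links among RNA changes of at least 1 up and down on day 3. Named peaks were the highest EGcorr for each of the 12, and the 5 largest rises and falls. Members and lists were chosen with earlier results of these data known. On simulated counts the ATAC fit of all libraries found 100% of 4-fold and 82% of 2-fold changes among 151630 peaks, that of replicates 4 to 6 found 99% and 26% among 151623, and the RNA fit 100% and 59% among 13704 genes. The simulation had a single fixed spread, no batch effect and changes only in features of higher mean count. Its shares therefore need not hold for the real libraries. Deviations of same-numbered libraries from their group means correlated at 0.12, 0.118 and 0.223 between ATAC no crush and day 1, so the numbers pair those libraries by a limit of 0.1, though no label says why. In every other ATAC or RNA comparison at least 1 pair was under that limit. ATAC description labels disagree with titles and treatments, and the last 2 were used. Other tools, size factors, filters, blocks and left-out libraries were tried as alternatives.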

Additional observations from a re-analysis of the deposited data

Results flagged for a closer look

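In 7 of 48 groups of 6 libraries, 1 library of a named linked peak lay farther from the nearest other than the spread of the group allows by Dixon's test. Chance gives about 1 in 20 such groups only where the libraries vary alike and the groups are independent. Here each group mixes both batches and the groups share libraries, so 7 of 48 cannot be set against that rate. Day 3 replicate 3 was the library in 4 of them. It held 4.98 CPM at chr9:63941802-63942330 (linked to Rpl4 and Smad3), with the other day 3 libraries at 2.44 to 3.24. It held 2.39 CPM at chr10:85311795-85312064 (Btbd11), with the others at 1.28 to 1.59, and 2.82 CPM at chr2:131761613-131761945 (Prnp), with the others at 1.36 to 1.85. At chrX:157707324-157707725 (Sms) it was low, with 0.431 CPM and the others at 0.992 to 1.31. Day 3 replicate 4 held 2.81 CPM at chr5:30517641-30518876 (Dpysl5), with the others at 1.91 to 2.13. Day 3 replicate 5 held 1.83 CPM at chr13:116380523-116380915 (Isl1), with the others at 0.687 to 1.02. No crush replicate 3 held 0.674 CPM at chr16:42523736-42524071 (Gap43), with the others at 0.168 to 0.349. The cause was not tested.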

How the results depend on the processing

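Counts of ATAC calls moved with the model, and for these moves the cause was not tested. For linked peaks on day 1 against no crush (514 called), the count was 0 with no batch term, 2423 in the batch that holds day 1 alone, 1080 with DESeq2, 195 with the replicate block and 22 with a term for reads in peaks, and 7 to 904 with 1 library left out. On day 3 against no crush (2861), it was 1322 with no batch term, 1639 with the term for reads in peaks (1089 higher and 550 lower) and 2287 to 3197 with 1 library left out, and the batch that holds day 1 gave 1722 higher and 2048 lower. On day 3 against day 1 (199), it was 0, 1514, 531, 128 and 882 with no batch term, the batch that holds day 1, DESeq2, the replicate block and the term for reads in peaks, and 0 to 435 with 1 library left out. In replicates 4 to 6 (517), the count was 401 with DESeq2, 481 with the replicate block and 283 to 646 with 1 library left out. RNA day 1 against no crush (673) gave 389 with only those groups fitted and 452 to 671 with 1 library left out. The ranges were 1108 to 1613 for day 2 (1610), 2079 to 2313 for day 3 (2320), 1788 to 2120 for day 4 (2129) and 440 to 824 for day 4 against day 2 (755), which was 640 with the replicate block.

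An EGcorr of 0.70 or more would give 13285 linked peaks and 6165 linked genes, 0.90 or more 1002 and 814, and -0.80 or less 0 and 0, since the table holds positive values only. Single values that changed sign were all short of the threshold. For day 4 against day 2, Zfp398 reached 0.035 with the replicate block. With 1 library left out the ranges were -0.17 to 0.17 for Gpr137b-ps, -0.16 to 0.11 for Zfp398, -0.0025 to 0.19 for Rpl4, -0.14 to 0.10 for Bola3, -0.27 to 0.57 for Cebpb, -0.13 to 0.074 for Mafg and -0.52 to 0.072 for Cck. In replicates 4 to 6 they were -0.013 to 0.59 for chr8:27102093-27103148 and -0.11 to 0.89 for chr13:12898328-12898564. Of other values for single genes and peaks, 814 kept direction and side of the threshold, 29 fell short of it and 17 newly passed it. With 2 libraries each on days 2 and 4, a lone library is assumed to vary like the other groups.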
